A study of Homo sapiens with 14 samples.

Results

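CWR22Rv1 cells that had received only DMSO, the solvent of the drugs tested, supplied the baseline transcriptome described here. The libraries were chosen by their treatment label and by no measured value, and they are 3 of the 14 libraries in the series. CWR22Rv1 is an established human prostate cancer line grown from a xenograft that had relapsed after androgen withdrawal, so every value comes from 1 line in culture. The cells were exposed to DMSO for 72 h, and the 3 libraries were labelled as biological repeats. The libraries of cells given the sialylation inhibitor P-SiaFNEtoc or the fucosylation inhibitors Fucotrim I, Fucotrim II and SGN-2FF were not used, so there was no group to test the DMSO cells against and no p-value is given. The question addressed is which transcripts of lineage factors, receptors, glycosylation enzymes and secreted products the cells held in the absence of any inhibitor.

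The prostate gland is lined by luminal cells, which secrete proteases of the kallikrein family, and by basal cells beneath them. Luminal cells depend on androgens, testosterone and its derivatives, which act on genes at chromatin opened by factors such as FOXA1, HOXB13 and GATA2. Prostate tumours usually keep this luminal program, and some take on features of hormone-secreting neuroendocrine cells when androgen signalling is blocked. Fucose and sialic acid are sugars that transferases attach to proteins and lipids from the activated donors GDP-fucose and CMP-sialic acid.

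The table held 27845 genes, of which 19175 were protein-coding, and the DMSO libraries 1, 2 and 3 held 17689808, 17454051 and 15398882 counts on genes. A count is 1 sequenced read assigned to a gene. CPM is counts per 1000000 counts of the library, and TPM divides by the gene's exon length before scaling, so levels of different genes are compared in TPM. A rank by CPM is by share of the reads, which favours long transcripts. A gene was called detected with at least 10 counts in every library and at the floor with 3 counts or fewer in every library. By these rules 13840 genes, or 49.7% of the table, were detected, 11469 genes (41.2%) were at the floor and 2536 lay between. Of the protein-coding genes, 12710 (66.3%) were detected and 4816 (25.1%) were at the floor, and the counts for gene lists below are read against these shares. Library 2 stood slightly apart from the others, as described with the spread between libraries. A gene with 0 counts in all 3 libraries, as for 8306 genes, could still be present at up to 0.0594 CPM, a limit that covers counting error only. Counts are listed in the order of libraries 1, 2 and 3, and errors are SDs over these libraries (n = 3). In a bulk library few cells with a transcript and little of it in each cell cannot be told apart.

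The 3 genes taken as markers of the line were all present. FOXA1, a pioneer factor that opens chromatin in luminal cells, had 8018, 7647 and 6864 counts (352 ± 10.3 TPM). SPINK1, a secreted trypsin inhibitor made by a subset of prostate tumours, had 1000, 989 and 890 counts (146 ± 3.24 TPM). KLK3, which encodes prostate-specific antigen, had 587, 574 and 439 counts (23.7 ± 1.84 TPM). In TPM the order was FOXA1, SPINK1 and KLK3, and the libraries' ranges did not overlap between neighbours in it. TPM depends on the length used, here the union of a gene's annotated exons. With the length of the MANE Select transcript, the 1 transcript per gene agreed on by the RefSeq and Ensembl annotations, the means were 321 TPM for FOXA1, 349 for SPINK1 and 54.5 for KLK3, so the order of FOXA1 and SPINK1 turned. Below, where this length moved a mean by over 1.5 times, both values are given. An order of genes is by union exon length unless stated. ERG, the ETS factor that fuses to TMPRSS2 in many other prostate tumours, had 3, 3 and 1 counts, which is at the floor.

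**Figure D1:**
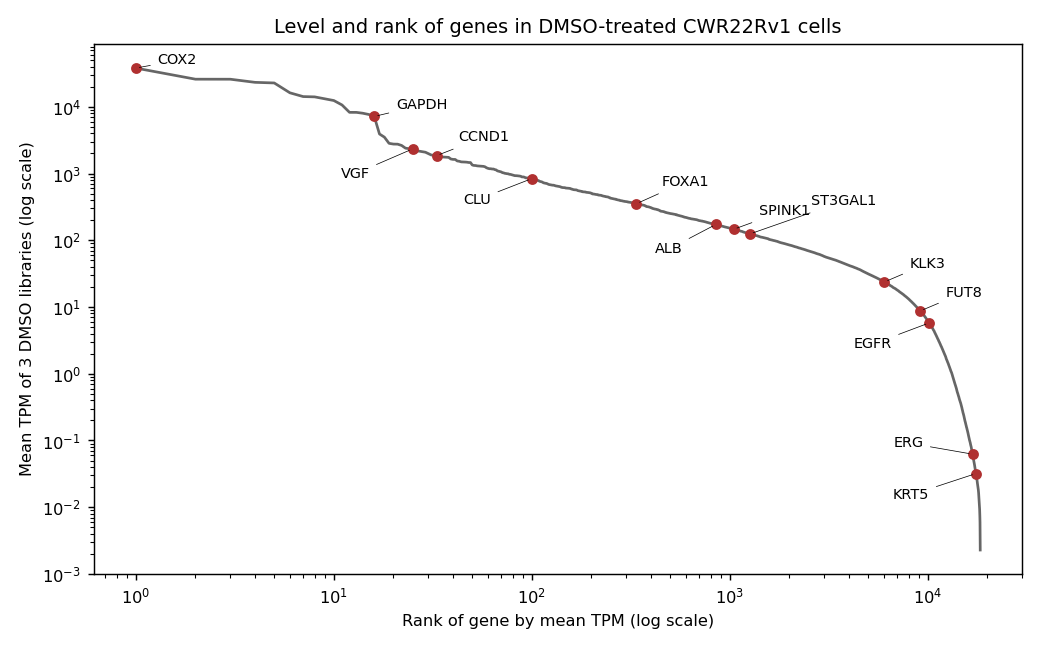
Mean TPM over the 3 DMSO libraries (log axis) against the rank of each gene by mean TPM (log axis), as a line through all genes with named genes as points. GAPDH ranked 16 and VGF 25 by TPM, KLK3 ranked 6028, and ERG and KRT5 lie below 0.1 TPM at ranks 16833 and 17476.

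A zero in this table did not always have the same standing. The human reference hg38 carries 261 alternate contigs, extra copies of some chromosome regions in another haplotype, and a read that matches a chromosome and a contig equally well has no single position. Exons were therefore cut into windows of 100 bases, and for each gene the percent of windows found letter for letter on an alternate contig was counted. Among protein-coding genes with no such window, 22.8% of 17713 were at the floor. Among the 578 genes with over 90% of their windows on a contig, 81.7% were at the floor and 6.92% were detected. Sequence repeated elsewhere on the main chromosomes showed a like split, with 84.0% of 257 genes at the floor where over 90% of windows were repeated and 23.7% of 15507 genes where none was. The authors aligned the reads to hg38, and whether their index held the alternate contigs, and how reads with several positions were counted, are not given in the sources used here, and the part of the contigs in these zeros was not tested.

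The pattern reached genes that dividing cells use. TUBB, which encodes the main beta-tubulin, and RPS18, a protein of the small ribosomal subunit, had 0 counts in every library. Both lie in the region of the major histocompatibility complex on chromosome 6, and 100% of the windows of each were on contigs. Along the complex and its flanks, from GPX6 to ZBTB9 at chr6:28503296-33457544 of hg38, 141 of 166 protein-coding genes (84.9%) were at the floor, beside 25.1% of all 19175. The windows below are coding sequence of each gene on the plus strand in lower case, TUBB at chr6:30722537-30722636 and RPS18 at chr6:33275965-33276064. They are shown because the same letters occur on 7 alternate contigs for TUBB and on 4 for RPS18, beside 1 copy each on chromosome 6. The other main chromosomes were not searched for these windows in that count.
TUBB: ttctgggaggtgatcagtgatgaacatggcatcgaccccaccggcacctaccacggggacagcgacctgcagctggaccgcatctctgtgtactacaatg
RPS18: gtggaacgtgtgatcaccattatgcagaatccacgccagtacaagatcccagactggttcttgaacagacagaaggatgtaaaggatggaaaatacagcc
For this reason a zero is described below as absence from the counts only, and the percent of windows on alternate contigs is given beside each gene at the floor where it was at least 50%. The percent of windows repeated on the main chromosomes is given for some genes only. A gene at the floor without that percent may still have such repeats.

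**Figure D2:**
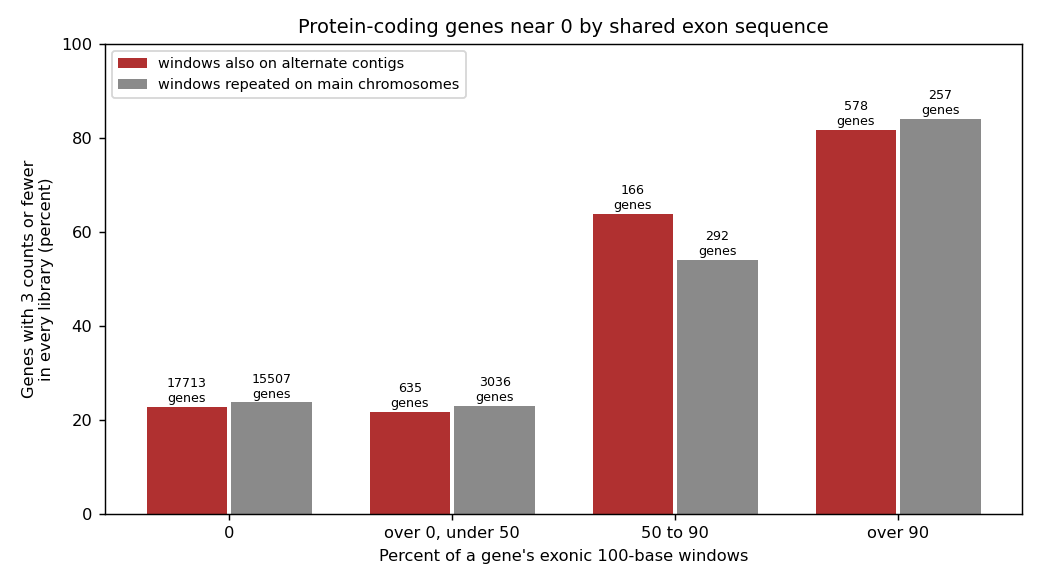
Percent of protein-coding genes at the floor (vertical axis) in classes of the percent of exonic windows shared with alternate contigs or repeated on the main chromosomes (horizontal axis). The share of genes at the floor stood at 22.8% and 23.7% where no window was shared and at 81.7% and 84.0% where over 90% were.

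The 25 genes with the most reads, by mean CPM, were led by transcripts of the mitochondrial genome. COX1, which encodes a core subunit of cytochrome c oxidase, took the most with 195345, 219575 and 165837 counts. ND4, COX2, RNR2, COX3, ATP6, ND5, CYTB, ND1 and ND2 were also among them. The nuclear genes in this group encode a glycolytic enzyme (GAPDH), actins and an actin-binding peptide (ACTB, ACTG1, TMSB10), translation factors (EEF1A1, EEF2), chaperones (HSP90B1, HSPA8, CALR, HSP90AA1, HSP90AB1), ATP synthase (ATP5F1B) and an RNA-binding protein (HNRNPA2B1). The other two were CCND1, the cyclin that starts the passage through G1, and VGF, a secreted neuropeptide precursor. CCND1 had 45222, 42700 and 39701 counts and VGF 34766, 26933 and 28844 counts. By TPM the 25 highest genes were 15 mitochondrial ones (COX2, COX1, ND4, COX3, ATP6, ND4L, RNR2, ATP8, CYTB, ND1, ND5, ND6, ND2, ND3 and RNR1) and TMSB10, GAPDH, RPS12, ATP5F1B, CALR, ACTB, RPL8, RPS2, EEF2 and VGF. The nuclear part of this order depends on the length used. Among nuclear genes with a MANE Select transcript, 13 of the 25 highest by union exon length were also among the 25 highest by MANE length.

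The 37 mitochondrially encoded genes took 6.05%, 7.03% and 5.98% of the counts in the 3 libraries, so library 2 stood above the others. The 13 mitochondrial mRNAs were all detected, from 38010 ± 2488 TPM for COX2 to 7672 ± 610.1 TPM for ND3. The 85 ribosomal protein genes, found by symbol, took 4.58%, 4.51% and 4.55%. Of these, 81 were detected, and RPS18 and RPS9 (1, 3 and 2 counts, 93.3% of windows on contigs) were not, nor were the tissue-restricted RPL3L and RPL10L. The 10 highest genes held 5.94%, 6.76% and 5.86% of the counts, the 100 highest 17.7%, 18.4% and 17.4%, and the 1000 highest 47.5%, 47.7% and 47.2%. Among 20 housekeeping genes 19 were detected, from 7168 ± 124 TPM for GAPDH, the glycolytic enzyme, to 39.3 ± 2.09 TPM for TBP, the TATA-binding protein, and 18.6 ± 0.875 TPM or 44.5 by MANE length for B2M, whose windows were on contigs to 88.7%.

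Of the 19 prostate lineage factors reported here, 18 (94.7%) were detected and ERG alone was at the floor. SPDEF, an ETS factor of secretory epithelium, stood highest of these with 4602, 4047 and 4038 counts (458 ± 36.9 TPM), and FOXA1 followed with no overlap. With MANE Select lengths the means of SPDEF and FOXA1 lay closer, at 333 and 321 TPM. HOXB13, a homeobox factor of the prostate, had 4326, 3916 and 3737 counts (272 ± 16.4 TPM), and GATA2, a zinc-finger factor of the luminal program, 3513, 3262 and 2883 counts (135 ± 5.82 TPM). Below these came the epithelial factors GRHL2 (82.7 ± 1.09 TPM), EHF (62.2 ± 1.76 TPM) and ELF3 (44.8 ± 1.18 TPM or 75.2 by MANE length), and SOX9 (56.8 ± 1.52 TPM), a factor of progenitor cells. The ETS genes ETV4, ETV5 and ETV1, which are fused in some tumours without an ERG fusion, had 34.7 ± 1.2 TPM, 16.8 ± 0.694 TPM and 12.7 ± 0.0985 TPM. The lowest detected member was ZBTB16, a zinc-finger repressor, at 5.99 ± 0.462 TPM.

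Of the 47 nuclear receptor genes reported here 31 were detected, and NR2F6 and ESRRA were the highest of these in mean TPM. NR2F6, an orphan receptor, had 2470, 1834 and 1941 counts (163 ± 24.7 TPM), and ESRRA, a receptor that controls mitochondrial genes, had 1828, 1482 and 1586 counts (109 ± 13.2 TPM). NR1H2, a sterol sensor, and RARG, a retinoic acid receptor, followed at 44.5 ± 3.81 TPM or 71.3 by MANE length and 41 ± 2.52 TPM. NR3C1, the glucocorticoid receptor, had 697, 697 and 557 counts (14.7 ± 0.664 TPM). The mineralocorticoid receptor NR3C2 had 342, 349 and 284 counts (10.2 ± 0.301 TPM) and the vitamin D receptor VDR 466, 462 and 434 counts (16.6 ± 0.773 TPM). The estrogen receptor ESR1 had 2, 0 and 1 counts, and the fat-cell regulator PPARG 0, 2 and 0 counts, both at the floor. The progesterone receptor PGR had 4, 2 and 3 counts, just above the floor. The other nuclear receptors at the floor were NR0B2, NR2E1, RXRG, NR5A1, NR0B1 and RXRB, the last with 100% of its windows on contigs.

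All 29 genes for chaperones and coregulators of steroid receptors were detected. HSP90AB1 and HSP90AA1, the chaperones that hold unliganded receptors, had 2162 ± 22.8 TPM and 1297 ± 22.9 TPM. The cochaperone PTGES3 (691 ± 12.6 TPM) and the corepressor TRIM28 (669 ± 39.1 TPM) came next with overlapping ranges, and then FKBP4 (473 ± 14.5 TPM). The coactivators NCOA2, NCOA3 and NCOA1 had 20.2 ± 0.696 TPM, 19.3 ± 0.728 TPM and 14.4 ± 0.717 TPM, and the acetyltransferases EP300 and CREBBP 40.8 ± 1.43 TPM and 20.3 ± 0.896 TPM. EZH2, a histone methyltransferase, had 2249, 2348 and 2095 counts (42.9 ± 1.49 TPM or 126 by MANE length).

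All 20 genes reported here from a list of androgen-responsive genes were detected. KLK4 was the highest of these, and ELL2, an elongation factor, FKBP5, a cochaperone, and ZBTB10, a zinc-finger protein, followed at 197 ± 2.05 TPM, 187 ± 5.36 TPM or 384 by MANE length and 180.0 ± 4.54 TPM. FKBP5 had 10135, 10292 and 8404 counts, with library 3 the lowest in raw counts as it was in depth. TMPRSS2, the membrane protease whose promoter drives ETS fusions, had 526, 538 and 459 counts (15.9 ± 0.108 TPM). SLC45A3, a prostate sugar transporter, had 666, 536 and 549 counts (32.3 ± 3.71 TPM). The lowest members were MAF and STEAP4, at 0.783 ± 0.162 TPM or 1.49 by MANE length and 0.52 ± 0.0402 TPM.

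Of the 18 genes for prostate secreted proteases and proteins, 10 were detected and 5 were at the floor, shares of 55.6% and 27.8%. CLU, a secreted chaperone, was the highest with 27172, 25940 and 23319 counts (839 ± 24.4 TPM or 1391 by MANE length). The kallikrein KLK4 came next with 4416, 4365 and 3697 counts (429 ± 8.02 TPM), then SPINK1 and the zinc-binding glycoprotein AZGP1 (65.1 ± 3.99 TPM or 103 by MANE length). KLK2, the kallikrein that activates prostate-specific antigen, had 1059, 1080 and 944 counts (33.5 ± 0.43 TPM), and its range lay above that of KLK3. With MANE Select lengths that gap closed, at 54.6 TPM for KLK2 and 54.5 TPM for KLK3. The order of the kallikreins in TPM was KLK4, KLK2, KLK3, KLK11 (5.96 ± 0.539 TPM or 11.5 by MANE length) and KLK15 (4.75 ± 0.508 TPM or 7.9 by MANE length). ACP3, prostatic acid phosphatase, had 136, 151 and 114 counts (6.44 ± 0.442 TPM). MSMB, a major protein of seminal fluid, had 1, 4 and 1 counts, below the detection rule. The semenogelins SEMG1 and SEMG2, the trefoil factor TFF3 and ORM1 had 0 counts in every library, and the transglutaminase TGM4 had 0, 1 and 0 counts.

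KLK3 and KLK2 are neighbours on chromosome 19 and are classic androgen-responsive genes, and their promoters are printed to show what these detected genes share in sequence. Each run is the 250 bases before the annotated start from the RefSeq promoter table on hg38, plus strand, 5′ to 3′, KLK3 at chr19:50854665-50854914 and KLK2 at chr19:50873189-50873438. Capitals mark matches on either strand to any of 6 motifs, which were the half-sites GNACA and GTNCT with 4 bases of any kind between them (a degenerate androgen response element), TATAAA, TGACGTCA (the cAMP response element), TGTTTA (a forkhead core), CCAAT and GGGCGG (the GC box).
KLK3: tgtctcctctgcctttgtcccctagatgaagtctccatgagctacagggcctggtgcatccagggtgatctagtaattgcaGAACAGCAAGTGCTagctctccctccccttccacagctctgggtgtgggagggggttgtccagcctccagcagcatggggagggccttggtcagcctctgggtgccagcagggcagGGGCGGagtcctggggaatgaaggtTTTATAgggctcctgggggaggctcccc
KLK2: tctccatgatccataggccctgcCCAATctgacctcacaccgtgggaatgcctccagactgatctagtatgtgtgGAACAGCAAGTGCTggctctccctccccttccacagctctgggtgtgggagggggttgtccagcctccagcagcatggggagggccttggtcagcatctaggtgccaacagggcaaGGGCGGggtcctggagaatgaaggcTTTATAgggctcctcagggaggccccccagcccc
Both held GAACAGCAAGTGCT, a match to the androgen form, from 169 to 156 bases before the start in KLK3 and from 175 to 162 in KLK2. Both also held GGGCGG, and TTTATA, which is TATAAA on the other strand, from 28 to 23 bases before the start in KLK3 and from 34 to 29 in KLK2. KLK2 alone of the pair held CCAAT. No marked match overlapped another. A match is a description of letters and not a site shown to be bound.

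Among the promoters of 15330 protein-coding genes matched to this table, 82 (0.535%) held the androgen form. The share was 0.421% among the 10452 detected genes and 0.825% among 3151 genes at the floor with under 50% of windows on contigs. TATAAA was in 9.13% of all promoters, 5.12% of those of detected genes and 19.2% of those of genes at the floor. GGGCGG ran the other way, in 67.7% of promoters of detected genes and 28.1% of those at the floor (56.8% of all). The median number of CpG dinucleotides in the 250 bases was 21 for detected genes and 4 for genes at the floor. The KLK3 and KLK2 promoters held 1 and 2 CpG, so these promoters had fewer than the median of either class. TGTTTA was in 8.04% of all promoters (6.08% of detected, 12.6% at the floor) and CCAAT in 34.7% (35.1% and 34.1%).

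Of the 18 prostate surface proteins and transcripts, 13 were detected. STEAP1, a surface protein of the STEAP family, was the highest with 1829, 1846 and 1608 counts (236 ± 1.6 TPM). FOLH1, which encodes prostate-specific membrane antigen, had 2965, 3052 and 2580 counts (111 ± 1.22 TPM), and STEAP2 had 4168, 4705 and 3754 counts (99.8 ± 5.75 TPM). TSPAN1, a tetraspanin, and CD276, the immune checkpoint ligand B7-H3, had 71 ± 3.19 TPM and 47.3 ± 4.46 TPM. The long noncoding RNA SCHLAP1, made by a subset of aggressive tumours, had 82, 88 and 61 counts (11 ± 1.2 TPM). Other prostate markers were low, with PSCA at 2.89 ± 0.325 TPM, AMACR, the racemase used in pathology, at 29, 24 and 24 counts, and the noncoding RNA PCA3 at 7, 13 and 10 counts. The calcium channels TRPM8 and TRPV6 and the RNA PCGEM1 were at the floor, TRPV6 with 70.2% of its windows on contigs.

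**Figure D3:**
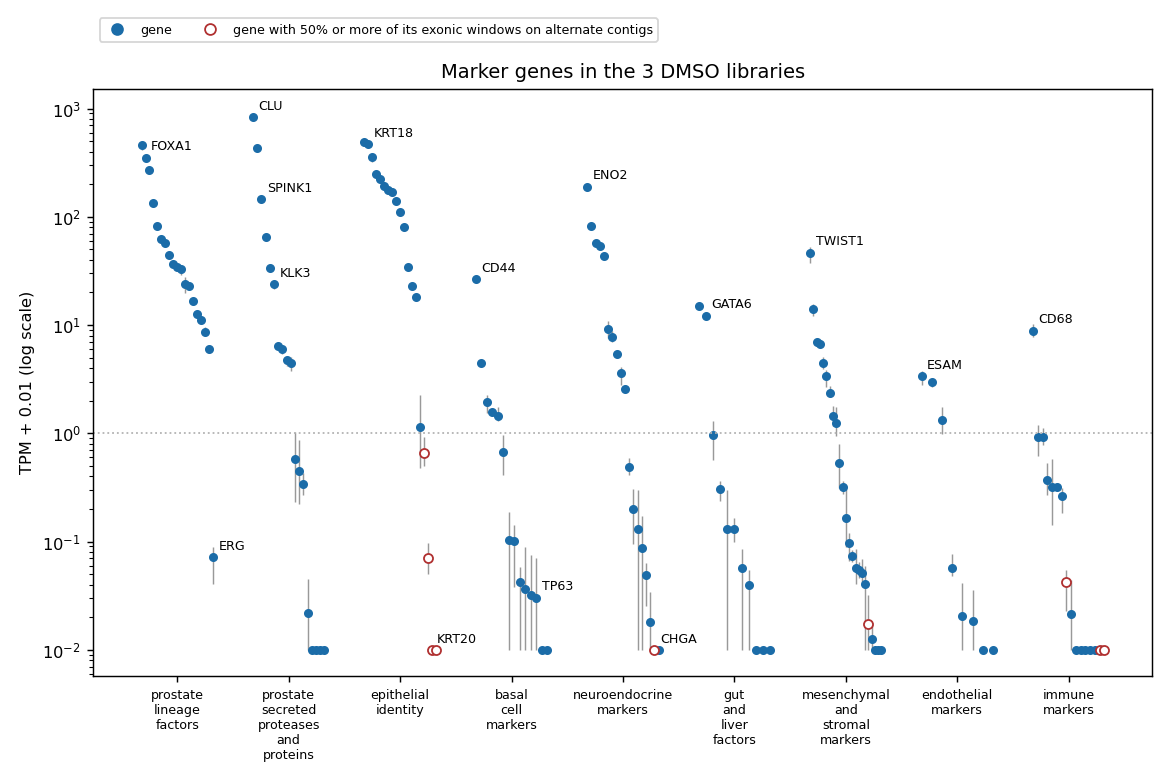
TPM + 0.01 (log axis) of the genes of 9 marker lists, each point the mean of the 3 DMSO libraries and each bar the range over them, with open points for genes that had at least 50% of their windows on alternate contigs and a dotted line at 1 TPM. FOXA1 and KRT18 sit above 100 TPM, and the basal factor TP63 sits near the bottom of the axis.

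The epithelial genes were mostly present. Of 19 members 15 were detected, with the tight junction gene CLDN7 at 487 ± 30.01 TPM, the keratins KRT18, KRT19 and KRT8 at 471 ± 21.9 TPM or 742 by MANE length, 353 ± 28.8 TPM and 249.5 ± 14.1 TPM or 698 by MANE length, and E-cadherin (CDH1) at 223 ± 5.64 TPM. The ranges of CLDN7 and KRT18 overlapped. KRT7, usually a keratin of other glands, had 461, 471 and 393 counts (22.8 ± 0.359 TPM or 40.8 by MANE length). KRT20 and KRT23 had 0 counts, with 100% of the windows of each on contigs, and OCLN (87.1%) had 3, 5 and 2 counts.

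Basal markers were present in part. Of 14 members 6 were detected, and these were mostly adhesion genes, with CD44, the hyaluronan receptor, at 1371, 1349 and 1154 counts (26.7 ± 0.452 TPM) and DST, a hemidesmosome linker, at 1096, 1086 and 898 counts (4.41 ± 0.132 TPM). KRT5 and KRT14, the keratin pair that defines basal cells, had 1, 1 and 0 counts and 2, 0 and 1 counts. TP63, the factor basal cells depend on, had 0, 0 and 2 counts, and all 3 were at the floor with under 50% of windows shared. KRT16, KRT17, KRT6A and KRT6B were at the floor too. The remaining detected members ran from ITGA6, an integrin chain, at 1.95 ± 0.367 TPM to KRT15 at 0.661 ± 0.28 TPM or 1.67 by MANE length.

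Neuroendocrine markers were unevenly present, with 11 of 18 detected and 5 at the floor. ENO2, the neuronal enolase, had 4022, 4047 and 3684 counts (189.7 ± 6.0 TPM). SCG3, a granin that sorts hormones into vesicles, had 1301, 1331 and 1168 counts (82.7 ± 1.36 TPM), and SYP, synaptophysin of the vesicle membrane, 2000, 1751 and 1701 counts (54 ± 4.05 TPM or 113 by MANE length). SRRM4, the neural splicing factor, had 3412, 3678 and 2997 counts (56.9 ± 2.02 TPM), a range that overlapped that of SYP. CHGB, chromogranin B, had 1011, 950 and 840 counts (43.4 ± 1.58 TPM), and the Notch ligand DLL3 32, 37 and 28 counts (2.55 ± 0.199 TPM). INSM1 and NEUROD1, factors that drive neuroendocrine fate, had 1, 0 and 2 counts and 1, 0 and 0 counts, both at the floor. NCAM1 (3, 1 and 3 counts) and GRP (0 counts in each library) were also at the floor. CHGA, chromogranin A, had 0 counts with 100% of its windows on contigs.

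VGF, the secreted neuropeptide precursor, had 2337 ± 317 TPM, or 1777 with the MANE Select length, with library 1 above the others (34766, 26933 and 28844 counts). APLN, which encodes the circulating peptide apelin, had 25599, 22916 and 21279 counts (1494 ± 89.95 TPM). A list of 10 granins and peptide-processing genes was put together after these values were seen, and 8 of its members were detected. PCSK1N, an inhibitor of the convertase PCSK1, had 1300, 819 and 979 counts (160.1 ± 36.8 TPM), and CPE, the carboxypeptidase that trims peptide hormones, 1594, 1350 and 1215 counts (91.9 ± 8.53 TPM). The convertases were low, with PCSK1 at 8, 5 and 2 counts and PCSK2 at 0, 2 and 1 counts, and SCG5 had 0 counts with 86.9% of windows on contigs. The VGF promoter is printed because its gene was among the 25 with the most reads, 250 bases before the start on the minus strand at chr7:101165570-101165819 of hg38, with capitals as above.
VGF: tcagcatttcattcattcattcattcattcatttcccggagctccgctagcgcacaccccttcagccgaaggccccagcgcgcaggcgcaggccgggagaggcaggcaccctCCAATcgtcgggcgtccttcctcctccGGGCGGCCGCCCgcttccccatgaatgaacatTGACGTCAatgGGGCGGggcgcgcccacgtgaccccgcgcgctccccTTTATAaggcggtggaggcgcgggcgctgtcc
It held TGACGTCA from 79 to 72 bases before the start, a motif in 2.37% of all protein-coding promoters (2.8% of detected genes and 1.17% at the floor). It also held CCAAT and, in both orientations, GGGCGG. The start was preceded by TTTATA from 32 to 27 bases away, and the promoter had 27 CpG.

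Genes of gut and liver were listed with earlier results of these data known, and few were detected. Of 11 transcription factors 2 (18.2%) were detected and 5 (45.5%) were at the floor, beside 66.3% and 25.1% of all protein-coding genes. HNF4G, a factor of the gut, had 377, 363 and 308 counts (15.1 ± 0.489 TPM), and GATA6, an endoderm factor, 225, 223 and 221 counts (12.2 ± 0.952 TPM). HNF4A had 6, 8 and 4 counts, and CDX1, CDX2 and SOX17 had 0 counts in every library. GATA4 and ONECUT1 were at the floor with 1, 1 and 0 counts and 0, 2 and 2 counts. Of 14 liver and blood cell genes 3 (21.4%) were detected. ALB, the serum albumin gene of hepatocytes, had 3231, 2872 and 2493 counts (173 ± 12.5 TPM), with no overlap with the next gene, the alpha-globin HBA1 (77, 56 and 67 counts), whose windows were repeated on the main chromosomes to 70.8%. The hepatocyte genes FGA and FGB and the erythroid genes HBB and HBG1 had 0 counts, HBG2 was at the floor, APOB had 0, 1 and 4 counts, and SERPINA1 had 0 counts with 86.2% of windows on contigs. APOH, an apolipoprotein of liver and the next hepatocyte gene after ALB, had 25, 24 and 22 counts (3.68 ± 0.121 TPM). The promoter of ALB, on the plus strand at chr4:73404037-73404286, is shown as that of the highest gene of this group, with capitals for the same 6 motifs.
ALB: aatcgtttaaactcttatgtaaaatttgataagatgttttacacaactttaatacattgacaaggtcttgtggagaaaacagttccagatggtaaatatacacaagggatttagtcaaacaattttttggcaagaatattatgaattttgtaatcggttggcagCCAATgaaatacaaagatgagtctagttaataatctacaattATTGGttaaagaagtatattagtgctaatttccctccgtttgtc
It held CCAAT from 86 to 82 bases before the start and, as ATTGG on the other strand, from 44 to 40, and none of the other motifs. It had 3 CpG.

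Markers of other cell types were few. Of 23 mesenchymal and stromal genes 8 were detected, led by TWIST1, a factor of mesoderm, with 502, 381 and 462 counts (46.8 ± 8.13 TPM). FN1, fibronectin, had 1348, 1061 and 1063 counts (13.9 ± 1.72 TPM) and VIM, vimentin, 186, 177 and 144 counts (6.74 ± 0.389 TPM or 11.7 by MANE length). DES, FAP and THY1 had 0 counts, COL1A2, SPARC and ZEB2 were at the floor, and so was MYH11 with 100% of windows on contigs. Of 8 endothelial genes ESAM, ENG and CLDN5 were detected at 3.37 ± 0.514 TPM, 2.99 ± 0.261 TPM and 1.33 ± 0.381 TPM or 2.38 by MANE length, and VWF, KDR, PECAM1, CDH5 and TEK were at the floor. Of 16 immune genes CD68, a lysosomal protein, was the only one detected, with 111, 86 and 82 counts. The leukocyte genes PTPRC (60.4% of windows on contigs), CD3D, CD3E, MS4A1, CSF1R, ITGAM, CD79A and FCGR3A were at the floor, as were NCR1 and HLA-DRA, both with 100% of windows on contigs. The summed level of each list in the 3 libraries was 153, 134 and 149.6 CPM for mesenchymal, 6.61, 7.79 and 8.38 CPM for endothelial and 8.82, 7.39 and 7.34 CPM for immune genes.

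Of the 58 receptor tyrosine kinase genes 33 (56.9%) were detected and 15 (25.9%) were at the floor, 2 of these with at least 50% of windows on contigs. FGFR3, a fibroblast growth factor receptor, had 2411, 2208 and 2222 counts (97.7 ± 7.62 TPM), and EPHA3, an ephrin receptor, had 3183, 3267 and 2769 counts (96.7 ± 0.906 TPM), with overlapping ranges. ERBB3, a member of the EGF receptor family with little kinase activity of its own, had 4357, 4216 and 3864 counts (73.3 ± 2.33 TPM or 111 by MANE length), and its range overlapped that of EPHB4 (73.2 ± 6.4 TPM). ERBB2 had 2791, 2427 and 2358 counts (50.7 ± 3.93 TPM or 83.2 by MANE length), above EGFR with 464, 441 and 425 counts (5.77 ± 0.325 TPM) and ERBB4 with 202, 167 and 143 counts (2.71 ± 0.326 TPM). MET, the receptor of hepatocyte growth factor, had 606, 564 and 506 counts (16 ± 0.649 TPM), and its ligand HGF was itself detected with 1936, 2039 and 1663 counts (39.8 ± 1.14 TPM). The insulin receptor INSR had 11.8 ± 0.279 TPM and IGF1R, the receptor of insulin-like growth factors, 2.92 ± 0.0428 TPM. AXL, FGFR2, FLT1, NTRK3, ROR2, MUSK, TEK, CSF1R and ROS1 had 0 counts, and ALK, TIE1, FLT3 and KDR were at the floor with counts above 0. DDR1 and EPHB6 had 0 counts with 100% and 84.1% of windows on contigs.

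Of the 53 other surface receptors 48 were detected. The death receptors TNFRSF21, TNFRSF1A and TNFRSF10B had 118 ± 3.15 TPM, 91.8 ± 2.69 TPM and 67 ± 1.36 TPM, and TFRC, the transferrin receptor, had 6581, 6481 and 5532 counts (73.8 ± 1.28 TPM or 186 by MANE length). FZD6, a Wnt receptor, and SCARB1, which takes up cholesterol from lipoproteins, followed at 54.7 ± 1.61 TPM and 52.5 ± 4.59 TPM or 166 by MANE length with overlapping ranges. TGFBR2, the ligand-binding receptor of TGF-beta, was low with 63, 66 and 55 counts (1.85 ± 0.0377 TPM). At the floor were TNFRSF1B, ACKR3, FZD10 and NOTCH4, the last with 98.6% of windows on contigs.

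Of the 70 growth factor and cytokine genes 39 (55.7%) were detected and 22 (31.4%) were at the floor. MDK, the heparin-binding factor midkine, had 12577, 11209 and 10815 counts (1096 ± 74.1 TPM or 2088 by MANE length), HDGF, a nuclear growth factor, 11588, 11425 and 10062 counts (613 ± 8.16 TPM), and GDF15, a stress-induced member of the TGF-beta family, 3039, 2696 and 2505 counts (272 ± 17.6 TPM). DKK1, a secreted Wnt antagonist, had 1055, 907 and 923 counts (89.9 ± 8.26 TPM), and VEGFA, the main angiogenic factor, 1658, 1739 and 1503 counts (23.4 ± 0.544 TPM or 68 by MANE length). IL1A, CCL2, CXCL12 and CSF2 had 0 counts in every library, CCL5 had 0 with 100% of windows on contigs, and IL6, IL1B, IL18, CXCL8, CXCL1 and CXCL2 were at the floor. FGF8, FGF9, FGF19, PDGFD, IGF2, EREG, NRG1, NRG2, DKK4 and SPP1 were at the floor too, and so was MIF with 0 counts and 100% of windows on contigs. Of 8 IGF binding proteins 5 were detected, with IGFBP3 at 3867, 3490 and 3497 counts (164 ± 12.7 TPM) and IGFBP2 at 2500, 2219 and 2129 counts (99.8 ± 6.77 TPM or 242 by MANE length) above the others, and IGFBP4 and IGFBP7 at the floor.

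The inhibitors of this study act on fucosylation and sialylation. Of 13 fucosyltransferases 8 (61.5%) were detected and 4 (30.8%) were at the floor, shares near the 66.3% and 25.1% of all protein-coding genes. POFUT1 and POFUT2, which attach fucose to serine and threonine of EGF-like and thrombospondin repeats, were the highest with 1599, 1447 and 1255 counts (44.6 ± 2.77 TPM) and 701, 685 and 687 counts (24.5 ± 2.01 TPM). FUT1, the enzyme of the H antigen, had 392, 384 and 351 counts (17.9 ± 0.537 TPM), and FUT11 had 294, 263 and 243 counts (11.2 ± 0.676 TPM or 19.3 by MANE length). FUT8, which adds the core fucose of N-glycans, had 311, 297 and 272 counts (8.71 ± 0.293 TPM). The order continued with FUT10 (6.41 ± 0.493 TPM), FUT2 (3.09 ± 0.268 TPM) and FUT4 (2.68 ± 0.421 TPM), and FUT2 and FUT4 overlapped while no other neighbours among the 8 did. FUT3, FUT5 and FUT6, which add fucose to Lewis antigens, were at the floor with 1, 2 and 1 counts, 2, 2 and 3 counts and 0 counts in each library, each with under 50% of windows shared. FUT7, the leukocyte enzyme of sialyl Lewis x, had 1, 3 and 3 counts, and FUT9 had 1, 1 and 5 counts, above the floor in library 3.

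Of 14 genes for the supply of GDP-mannose and GDP-fucose, a list that also holds fucosidases, 13 were detected and none was at the floor. GMDS, the dehydratase that starts the de novo route from GDP-mannose, had 300, 299 and 247 counts (13.8 ± 0.387 TPM or 25.4 by MANE length). GFUS, which completes that route, was the member not detected. It had 9, 11 and 7 counts with 88.5% of its windows on contigs, so its low count has the limit described above. In the salvage route FCSK, the fucokinase, had 606, 629 and 541 counts (16.9 ± 0.268 TPM), and FPGT, which makes GDP-fucose from fucose-1-phosphate, 242, 244 and 211 counts (8.55 ± 0.020 TPM). The Golgi transporter SLC35C1 had 375, 382 and 324 counts (19.2 ± 0.145 TPM). FUCA2, a fucosidase, was the highest of the list by exon length with 1617, 1607 and 1369 counts (112 ± 1.47 TPM), followed by FUOM, a fucose mutarotase (49.7 ± 1.97 TPM), and FUCA1, the lysosomal fucosidase (45.3 ± 0.476 TPM). With the MANE Select length PMM1, a phosphomannomutase, came first at 114 TPM, and FUCA2 had 96.3 TPM.

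Of 20 sialyltransferases 13 (65%) were detected, beside 66.3% of all protein-coding genes, and 2 were at the floor. ST3GAL1, which caps the core 1 O-glycan, stood apart from the rest with 5605, 5203 and 4972 counts (124 ± 6.76 TPM). The next was ST6GALNAC6, a ganglioside enzyme, with 482, 483 and 446 counts (18.4 ± 0.716 TPM or 29.3 by MANE length), and then ST6GALNAC4 (11 ± 0.35 TPM). ST6GAL1, the alpha-2,6 enzyme of N-glycans, had 402, 357 and 399 counts (7.22 ± 0.941 TPM or 12.6 by MANE length), and ST3GAL4 and ST8SIA4 had 7.65 ± 0.511 TPM or 18.3 by MANE length and 7.46 ± 0.116 TPM. The ranges of ST3GAL4 and ST8SIA4 overlapped, and so did those of ST8SIA4 and ST6GAL1. ST6GALNAC1, the enzyme of the sialyl-Tn antigen, had 5, 4 and 2 counts, and ST6GAL2 and ST8SIA2 were at the floor. Of 13 genes for sialic acid supply and removal 10 were detected. CMAS, which makes CMP-sialic acid, had 2707, 2625 and 2444 counts (272 ± 10.7 TPM), and the Golgi transporter SLC35A1 606, 630 and 559 counts (62.2 ± 1.86 TPM). GNE, the first enzyme of sialic acid synthesis, had 158, 171 and 141 counts (5.53 ± 0.196 TPM), and NANS, the synthase, 1187, 1170 and 1067 counts (48 ± 1.39 TPM or 145 by MANE length). The sialidase NEU3 had 206, 231 and 197 counts (6.07 ± 0.347 TPM), NEU2 had 0 counts, and NEU1 and NEU4 had 0 counts with 100% of windows on contigs.

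**Figure D4:**
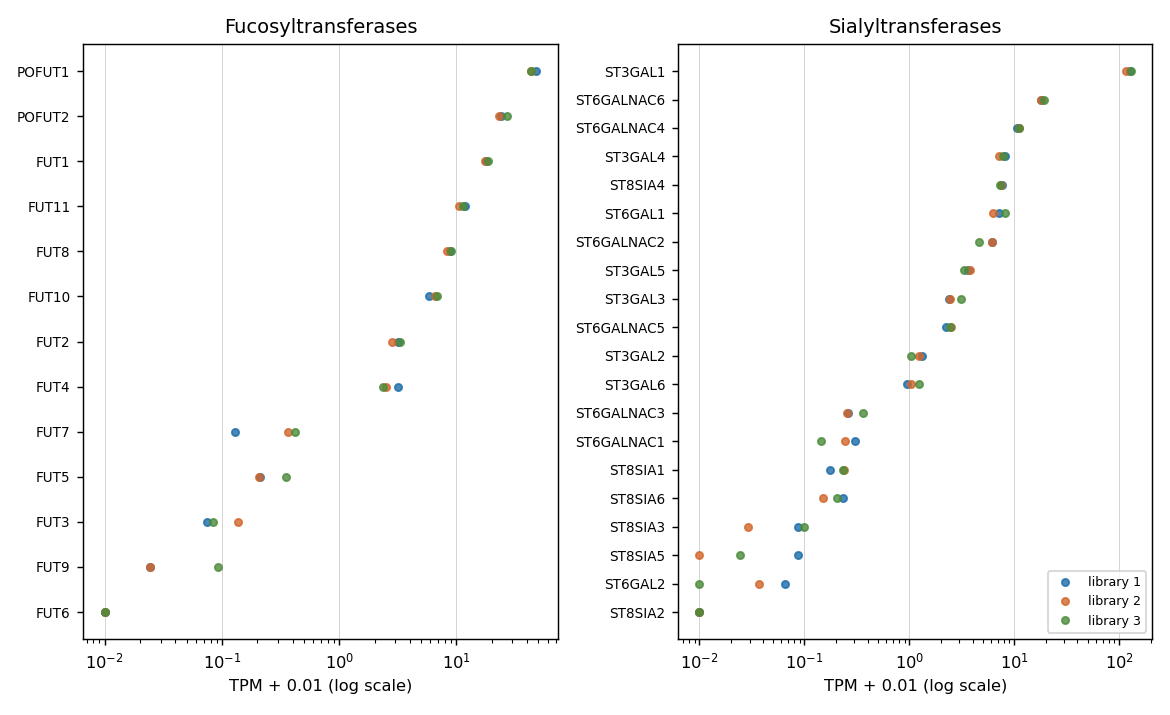
TPM + 0.01 (log axis) of fucosyltransferase and sialyltransferase genes, 1 point per DMSO library. ST3GAL1 lies above 100 TPM and apart from the other sialyltransferases, while POFUT1 leads the fucosyltransferases and FUT3, FUT5 and FUT7 lie below 1 TPM.

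The N-glycan list had 49 of 53 members (92.5%) detected. GANAB, a glucosidase of protein folding, had 449 ± 8.58 TPM, and the oligosaccharyltransferase subunits RPN2, DAD1, RPN1 and DDOST had 412 ± 8.95 TPM, 392 ± 6.67 TPM, 385 ± 9.85 TPM and 319 ± 11.2 TPM. The branching enzymes MGAT1, MGAT2, MGAT4B and MGAT5 had 28.2 ± 2.43 TPM, 70.04 ± 3.81 TPM, 88.4 ± 2.38 TPM or 149 by MANE length and 15.6 ± 0.648 TPM, and MGAT3, which adds the bisecting sugar, only 1.37 ± 0.212 TPM. B3GALT2 was at the floor, and B3GALT4 had 0 counts with 100% of windows on contigs. In the O-glycan list 18 of 35 were detected and 9 were at the floor. GALNT7, a transferase that continues O-glycan start sites, was the highest with 6203, 6204 and 5147 counts (178 ± 4.31 TPM), and OGA and OGT, which remove and add intracellular GlcNAc, had 82.9 ± 2.71 TPM and 53.9 ± 4.07 TPM. C1GALT1, the core 1 synthase, and its chaperone C1GALT1C1 had 9.23 ± 0.86 TPM and 63.7 ± 3.29 TPM. GALNT5, GALNT9, GALNT13, GALNT14, GALNT15, GALNT17, GALNTL5, GCNT4 and B3GNT6 were at the floor. Of 16 mucins, the main O-glycan carriers, 4 were detected, with MUC13 at 1700, 1464 and 1283 counts (87.5 ± 7.78 TPM) and MUC1 at 38, 36 and 31 counts (3.01 ± 0.111 TPM). MUC2, MUC7, MUC15, MUC16 and MUC17 were at the floor with under 50% of windows on contigs, as were MUC6 with 97.1% and MUC4, MUC20 and MUC21 with 100% each.

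Of 33 steroid enzyme genes 17 were detected and 9 were at the floor. HSD17B10 and HSD17B11, dehydrogenases with several substrates, had 156 ± 9.94 TPM or 335 by MANE length and 107 ± 2.55 TPM, and RDH11, a retinol dehydrogenase of the prostate, 91.5 ± 0.184 TPM or 144 by MANE length. AKR1C3, which makes testosterone from androstenedione, had 515, 499 and 459 counts (26 ± 0.866 TPM or 62.2 by MANE length). Of the 5-alpha-reductases SRD5A3 and SRD5A1 had 34.8 ± 1.1 TPM and 13.1 ± 0.333 TPM, and SRD5A2, the form of the normal prostate, had 0, 1 and 0 counts. The enzymes that make androgens from cholesterol were at the floor, as CYP11A1, CYP17A1 and HSD3B1 had 0 counts and HSD3B2 1, 0 and 0 counts. CYP19A1, HSD17B2, SULT2A1 and DHRS9 were at the floor as well. Of 19 oxidoreductase and metallothionein genes 12 were detected, with NQO1, a quinone reductase, at 699 ± 18.7 TPM and TXNRD1, thioredoxin reductase, at 545 ± 7.3 TPM. ALDH3A2, the fatty aldehyde dehydrogenase, had 28139, 28131 and 23994 counts (361 ± 3.41 TPM or 1084 by MANE length), so it came below NQO1 by exon length and above it by MANE length (597 TPM for NQO1). GSTP1, a glutathione transferase often silent in prostate tumours, had 1, 3 and 1 counts, and AKR1B1, AKR1B10 and ALDH1A2 were at the floor with it.

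Of the 49 cell cycle and tumour genes reported here 45 were detected. CCND1 stood highest at 1852 ± 76.5 TPM, PCNA, the replication clamp, had 600.4 ± 36.1 TPM, and CDK4, the partner kinase of CCND1, 365 ± 14.3 TPM. The mitotic cyclin CCNB1 had 344 ± 2.78 TPM, and MKI67, the antigen of cycling cells, 7673, 7437 and 6793 counts (118 ± 3.55 TPM). CCND2 had 0 counts with no window on contigs, and CCND3 had 1229, 1250 and 1106 counts (43 ± 0.794 TPM or 88.6 by MANE length). The inhibitors CDKN1A (p21), CDKN1B (p27) and CDKN2A had 172 ± 7.41 TPM, 89.4 ± 1.63 TPM or 249 by MANE length and 68.5 ± 4.14 TPM or 197 by MANE length. RB1, which limits the cycle, had 1758, 1792 and 1579 counts. MYC had 3870, 3639 and 3308 counts (122 ± 4.49 TPM). TERC, the telomerase RNA, was at the floor with 3, 1 and 0 counts, in libraries that select polyadenylated RNA. CDKN1C had 0 counts with 79.9% of windows on contigs. HRAS had 88, 2 and 5 counts with 100% on contigs, with library 1 far above the others.

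Of the 34 lists, that of antigen presentation had the largest share of members with at least 50% of windows on contigs, 11 of 16. Of the 16, 6 were detected and 8 were at the floor, each of the 8 with at least 50% of windows on contigs. PVR and NECTIN2, ligands of immune checkpoints, had 47 ± 2.18 TPM and 44.3 ± 2.28 TPM, and CD47, the signal against phagocytosis, 22.4 ± 0.256 TPM. B2M, the light chain of HLA class I, had 307, 283 and 250 counts, with 88.7% on contigs. HLA-C had 160, 147 and 113 counts with 76.9% on contigs, and HLA-B 120, 90 and 94 counts with 50.1%. TAP1, TAPBP, HLA-E, PSMB8 and PSMB9, with 100% of windows on contigs each, TAP2 (98.9%), HLA-F (91.4%) and HLA-G (88.5%) were at the floor. Absence of these transcripts from the cells cannot be read from these counts.

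The libraries were close to each other. The common biological coefficient of variation, the spread beyond counting error that edgeR estimates over the detected genes, was 3.89%. Along the fitted trend it was 9.08% near a mean of 20 counts, 6.74% near 100, 3.75% near 1000 and 3.57% near 10000. The CV of counts scaled with edgeR's TMM factors, counting error included, had a median of 5.24% over the detected genes. Pairs of libraries had a Pearson r of log2 CPM across 13840 genes of 0.995 for 1 and 2, 0.996 for 1 and 3 and 0.995 for 2 and 3, and genes are not independent replicates. A chi-square statistic per degree of freedom, which is 1 when only counting error separates libraries, was 4.36 for libraries 1 and 2, 3.72 for 2 and 3 and 1.74 for 1 and 3. All pairs therefore differed by more than counting error and were kept as 3 samples.

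Library 2 stood slightly apart. Among 10780 genes whose mean reached 100 counts it was the one farthest from the others in 4471 (41.5%), library 1 in 30.4% and library 3 in 28.2%. The offset moved with base composition. Relative to the mean of the others, library 2 had a median log2 difference of 0.05 over 2343 genes with under 40% GC in their exons and of -0.11 over 1470 genes with over 60% GC. Without library 2 the common coefficient of variation was 2.42%, and the part of base composition in this spread was not tested.

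**Figure D5:**
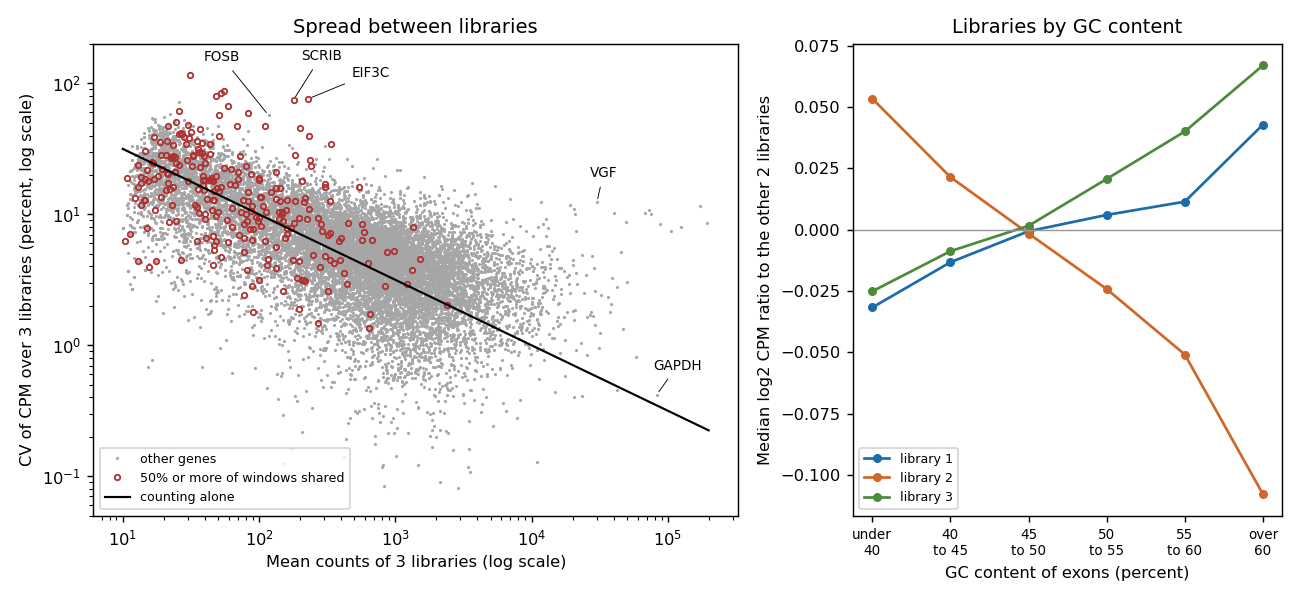
On the left, the CV of CPM over the 3 DMSO libraries (percent, log axis) against the mean count (log axis), 1 point per gene, with the CV that counting alone gives as a line and open points for genes with at least 50% of windows shared. On the right, the median log2 CPM ratio of each library to the other 2 in classes of exon GC content, where library 2 runs from 0.05 under 40% GC to -0.11 over 60%.

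The 10 genes with the largest CV among those averaging 100 counts or more were EIF3C, SCRIB, FOSB, RN7SK, NAP1L4, CFC1, CCZ1B, SNCG, MMP24OS and LOC728715. EIF3C, a translation initiation subunit with a near-identical copy, had 142, 441 and 108 counts with 94.9% of its windows repeated on the main chromosomes. SCRIB, a polarity protein, had 262, 26 and 250 counts with 100% on contigs, and NAP1L4, a histone chaperone, 107, 236 and 261 counts with 82.5%. In these genes 1 library stood apart from the pair. FOSB, an immediate early factor, had 93, 77 and 183 counts, with library 3 the highest, and SNCG, gamma-synuclein, 238, 123 and 137 counts, with library 1 the highest. RN7SK, a noncoding RNA that has no poly(A) tail, had 178, 79 and 77 counts with 52.2% of its windows repeated on the main chromosomes. CFC1 had 205, 180 and 318 counts with 83.6% repeated in this way, and CCZ1B 489, 249 and 276 counts with 59.3%. MMP24OS had 402, 197 and 313 counts and LOC728715 76, 146 and 94 counts. Of the 25 most variable genes 8 (32%) had at least 50% of their windows shared with a contig or repeated, beside 92 of all 10780 (0.853%). These genes were chosen for their spread, so both shares are a description.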

How the data were processed

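Stranded mRNA libraries of CWR22Rv1 cells were sequenced as single reads by the authors, who trimmed them, aligned the reads to the hg38 genome using HISAT2 and obtained gene totals from featureCounts. The submitters' processing notes also name FastQC and limma. The deposited counts are whole numbers per gene, not normalized, and no other unit was used. The annotation, the strand setting and the handling of reads with several positions are not given in the sources used here. The 3 DMSO columns came from the P-SiaFNEtoc table and were identical for shared genes in all 4 deposited tables. The number of columns that matched no sample was 0.

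CPM was computed on the total of counts. TPM used union exon lengths from GENCODE 44, with lengths under 200 bases left out, and 4121 genes with 0.124% of the counts had no length. TPM by MANE Select length left out every gene without a MANE Select transcript, such as the mitochondrially encoded genes, RN7SK and PEG10. Leaving genes out of the total raises the values of the rest. Exonic windows of 100 bases at steps of 10 bases were searched in hg38. Promoters came from the RefSeq table and were joined by NCBI gene number, which left 18302 genes with 250 bases of unambiguous sequence. Dispersions were fitted with edgeR 4.0.16 in R 4.3.3 with TMM factors and an intercept only, after a test on simulated data, and DESeq2 1.42.0 gave alternative size factors. Python 3.11.15, pandas 2.3.3 and matplotlib 3.10.9 were used for the rest. Groups came from the treatment labels. Values are means with SDs over 3 libraries, and no test was run. Replicate p-values would in any case measure only the spread between these cultures. A gene was named if it was among the 25 highest by CPM or TPM, among the 10 most variable with a mean of at least 100 counts, a leading or a floor member of a fixed list, or named by the study. The members and the 31 lists were chosen with earlier results of these data known, and 3 lists were added after values were seen. Some listed genes are not reported here and were left out of the counts of their lists. GSTT1, 1 of the listed genes, was not in the table.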

Additional observations from a re-analysis of the deposited data

How the results depend on the processing

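No paired analysis was possible because no result came from a test between groups. The number of genes detected was 13840 and ran from 13468 to 16709 under other detection rules, from 13947 to 14006 with 1 library left out, and was 13744 without genes with at least 50% of windows on alternate contigs. The number of genes with a mean of at least 1 TPM was 13226, and 13171, 13575 and 12240 with the longest transcript, without mitochondrially encoded genes and with MANE Select lengths (13197 to 13232 with 1 library left out). The count with MANE Select lengths leaves out genes without such a transcript, so it differs in gene set as well as length. By union exon length 12252 protein-coding genes reached 1 TPM. Without mitochondrially encoded genes the ribosomal protein share was 4.86% and the highest 10, 100 and 1000 genes held 3.07%, 13.4% and 44.2%. Ranked without them but kept in the total, an alternative added after seeing the data, these were 2.88%, 12.6% and 41.4%. With 1 library left out the mitochondrially encoded share ran from 6.02% to 6.54%, the ribosomal protein share from 4.53% to 4.57%, the share of the highest 10 genes from 5.90% to 6.35%, of the highest 100 from 17.5% to 18.0% and of the highest 1000 from 47.4% to 47.6%. The common biological coefficient of variation of 3.89% ran from 2.42% without library 2 to 4.79% without library 3, and was 3.83% without genes whose windows are shared. The median CV of 5.24% was 8.09% with no filter on low counts, and ran from 3.73% to 4.78% with 1 library left out. A CV over fewer libraries has a lower median by itself, so this fall does not bear on stability. For 23 single genes CPM moved by less than 1 SD under edgeR and DESeq2 factors, and 20 of the 23 moved by more without mitochondrially encoded genes. The other deposited tables hold the same counts for these libraries, and leaving out 1 of 3 cannot move a mean by 1 SD, so neither bears on stability. In TPM 22 of the 23 moved with MANE Select lengths, and 20 with the longest transcript. The ratios of MANE to union TPM ran from 0.725 to 2.39 and include the effect of the genes left out. Genes with unlike ratios can change places, so their order depends on the length used. Depth limits the rare transcripts, as 0 counts in every library allows up to 0.0594 CPM. The MANE Select lengths and the leaving out of genes with shared windows were chosen after seeing the data.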

Other observations

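A list of 18 cancer-testis genes, which are normally read in the germline and not in prostate, was put together after high members had been seen among the abundant transcripts, so its counts are a description. Of the 18, 8 were detected and 6 were at the floor. MAGEA4, a member of the MAGE-A family on the X chromosome, had 5565, 5481 and 4763 counts (324 ± 4.01 TPM), and CTAG2, which encodes the antigen LAGE-1, had 2152, 1774 and 1883 counts (405 ± 46.4 TPM). MAGEA1 had 2390, 2293 and 1940 counts (267 ± 9.51 TPM) and SSX3, a transcriptional repressor of the SSX family, 960, 1256 and 1052 counts (107 ± 14.6 TPM), with library 2 the highest in SSX3. MAGEA3 and MAGEA6 had 174 ± 14 TPM and 106 ± 4.9 TPM, and 37.9% and 37.9% of their windows were repeated on the main chromosomes, so reads of one could fall on the other. SSX2 and CTAG1B had 45, 55 and 53 counts and 8, 9 and 7 counts with 100% of their windows repeated. MAGEC1, MAGEB2 and PAGE5 had 0 counts, GAGE1 and SSX4 were at the floor, and PRAME had 0 counts with 100% of its windows on alternate contigs. The share of repeated windows is not given here for GAGE1 and SSX4, so their low counts are not read as absence from the cells.

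Immediate early genes, which serum and handling switch on within minutes, were also listed after their spread had been seen. Of 15 members 12 were detected. JUND had 3761, 2916 and 3328 counts (359.5 ± 54 TPM), with library 2 the lowest, and FOS 950, 1043 and 1243 counts (70.9 ± 16 TPM), with library 3 the highest although it was the shallowest. FOSB and EGR1, which had 93, 77 and 183 counts and 1091, 1010 and 1167 counts, were highest in library 3 in the same way. ATF3, a stress factor of the same class, had 860, 774 and 704 counts (40.3 ± 2.32 TPM). IER3 had 0 counts with 92.1% of its windows on alternate contigs.

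In the region of the major histocompatibility complex some genes had nearly all of their counts in 1 library. BAG6, a chaperone gene, had 4, 228 and 2 counts, NELFE, a pausing factor gene, 86, 1 and 1 counts and VPS52, a vesicle sorting gene, 0, 35 and 0 counts, with 97.4%, 100% and 100% of their windows on alternate contigs.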
